A study of Mus musculus with 15 samples.

Results

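Vil1, Lct, Alpi and Sis are 4 genes of the brush border, the carpet of microvilli on the surface of intestinal cells that absorb nutrients. Their chromatin was followed in 12 lists of peaks from mouse intestinal epithelium through fixed windows of the mm9 genome build. The windows were chromosome 1 from 74435000 to 74500000 for Vil1 (65 kb), chromosome 1 from 130160000 to 130250000 for Lct (90 kb), chromosome 1 from 88970000 to 89020000 for Alpi (50 kb) and chromosome 3 from 72670000 to 72800000 for Sis (130 kb). All peaks that overlapped a window were taken, which gave 375 of the 778471 peaks of the series. Of these, 180 lay at Vil1, 63 at Lct, 61 at Alpi and 71 at Sis. A gene's name below stands for its window, and whether a peak belongs to that gene or to a neighbour was not analysed here.

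The dimethyl mark of histone H3 lysine 4 (H3K4me2), found at promoters and enhancers, was mapped in 7 libraries from C57BL/6 mice. Lgr5+ intestinal stem cells (ISC, 1 library) were sorted for green fluorescent protein from Lgr5-eGFP-Cre mice. Secretory progenitors (Sec-Pro) were enriched in crypts by deleting Rbpj, the DNA-binding partner of Notch (1 library, Rbpj-/-), or under dibenzazepine, which inhibits Notch (1 library, DBZ). Enterocyte progenitors (Ent-Pro, 2 libraries) came from crypts of Atoh1-/- mice, which have no secretory cells. Goblet cells (GOB, 1 library) were taken from villi of Rbpj-/- mice and enterocytes (ENT, 1 library) from villi of Atoh1-/- mice. Sec-Pro and Ent-Pro each also gave 1 library for H3K27ac, an acetyl mark of promoters and enhancers in use, and 1 for DNase I hypersensitive sites (DHS), which are stretches of open chromatin. ATOH1, the transcription factor that secretory cells need, was mapped in 1 Sec-Pro library through a FLAG tag. Whether Rbpj-/- or DBZ cells were used for these 3 assays is not stated, and the labels name no sort for any cells but ISC. The sources used here give no Cre driver, no age and no number of mice. In these groups the lineage and the genotype or treatment cannot be told apart. The values came from bulk chromatin, so a mark on fewer cells and a weaker mark on all cells cannot be told apart. The defining markers of the cell types could not be looked up, because no gene annotation of build mm9 was used here.

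Microvilli are held up by bundles of actin, and villin, the product of Vil1, cross-links and severs these filaments. The other genes encode enzymes anchored in the microvillus membrane. Lactase (Lct) splits milk sugar, sucrase-isomaltase (Sis) splits sucrose and starch fragments, and intestinal alkaline phosphatase (Alpi) removes phosphate groups from lipids, nucleotides and bacterial products. The enzymes are made mainly by enterocytes of the villus, whereas villin is present in most cells of the intestinal epithelium, crypt cells included. CDX2, HNF1, HNF4 and GATA4 are transcription factors known to act on genes of enterocytes.

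The 250 bases before each start site are shown because the genes differ in base composition and in the letters that these factors and the core machinery read. The sequences are RefSeq's of build GRCm38.p6, in which all 4 genes were found. Their positions cannot be set beside those of the peaks, which are of build mm9. Each sequence reads 5′ to 3′ on the gene's own strand, and capitals mark every match to a searched motif on either strand. The intervals are chr1:74409134-74409383 (plus strand) for Vil1, chr1:128328319-128328568 (minus strand) for Lct, chr1:87101607-87101856 (minus strand) for Alpi and chr3:72967864-72968113 (minus strand) for Sis.
Vil1: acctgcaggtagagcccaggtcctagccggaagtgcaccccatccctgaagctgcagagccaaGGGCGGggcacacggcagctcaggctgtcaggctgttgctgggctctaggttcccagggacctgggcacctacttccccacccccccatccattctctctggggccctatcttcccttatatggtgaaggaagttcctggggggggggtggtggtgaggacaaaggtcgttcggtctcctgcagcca
Lct: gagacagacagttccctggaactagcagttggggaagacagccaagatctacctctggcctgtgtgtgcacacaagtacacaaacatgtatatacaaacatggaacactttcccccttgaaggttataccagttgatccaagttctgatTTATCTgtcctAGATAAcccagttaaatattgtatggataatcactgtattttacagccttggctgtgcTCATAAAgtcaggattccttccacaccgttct
Alpi: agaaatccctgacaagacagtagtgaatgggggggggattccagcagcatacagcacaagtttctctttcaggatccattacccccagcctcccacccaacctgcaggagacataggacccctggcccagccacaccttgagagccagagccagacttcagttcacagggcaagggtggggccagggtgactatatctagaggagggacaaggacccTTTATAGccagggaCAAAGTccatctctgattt
Sis: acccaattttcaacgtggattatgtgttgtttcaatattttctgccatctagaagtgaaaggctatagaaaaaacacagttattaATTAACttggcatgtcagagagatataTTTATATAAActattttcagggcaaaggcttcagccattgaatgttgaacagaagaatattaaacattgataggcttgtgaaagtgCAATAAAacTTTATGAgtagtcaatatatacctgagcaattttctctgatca

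The promoters ran from rich to poor in G and C, with 62.8% at Vil1, 54.4% at Alpi, 42.8% at Lct and 31.6% at Sis. The median over 27025 genes was 52.0% (quartiles 44.8% and 60.8%), so Vil1 lay above and Lct and Sis below the range between the quartiles. Positions below count back from the start site. Vil1 held 1 motif, GGGCGG (GC box), at -187. Lct held AGATAA, letters of the GATA factors, on both strands, at -101 and at -90. It also held TTTATNA, a second form of the CDX letters that was added after the sequences had been seen, at -32. Alpi held TTTATNG (CDX) at -33, which overlaps TATAAA, letters of the core promoter, at -33 on the opposite strand, and CAAAGT (letters of HNF4) at -19. Sis held TTTATNG at -52, TTTATNA at -43, GTTAAT (letters of HNF1) at -165 and TATAAA at -138 and -134, on opposite strands and overlapping each other. These 4 promoters thus shared no single motif. The enzymes' promoters, but not that of Vil1, held at least 1 of the searched strings of letters of intestinal factors. The share of all promoters that hold at least 1 of these was not counted, so this split has no background to be read against.

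Such letters are common, as the same stretch of all promoters shows. TTTATNG stood in 11.3% of them, TTTATNA in 14.7%, AGATAA in 11.4%, GTTAAT in 7.49%, CAAAGT in 14.1%, TATAAA in 14.3% and GGGCGG in 35.4%. The E-boxes CAGCTG and CAGATG, letters that factors such as ATOH1 can read, stood in 14.7% and 16.3% of all promoters and in none of the 4. Of 24 other genes of absorptive cells (among them Anpep, Dpp4, Slc5a1, Myo1a and Fabp2), 22 were found in the promoter table. CAAAGT stood in 8 of these 22, TATAAA in 7, GGGCGG in 7, TTTATNG in 5, TTTATNA in 5, CAGATG in 5, CAGCTG in 4, AGATAA in 4 and GTTAAT in 2. A match is a string of letters and not a shown binding site.

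The sources used here give no read numbers, so the lack of a called peak does not show that the mark was absent. The H3K4me2 lists held 63293 to 92279 peaks. They covered 57.0 to 75.0 Mb of the genome, except that of ISC, which covered 33.4 Mb. The shortest peak was 146 bp in the ISC, DBZ Sec-Pro, Ent-Pro replicate 1, GOB and ENT lists and 200 bp in the other H3K4me2, H3K27ac and DHS lists. Each peak has a score from the authors, whose quantity the files do not name. Scores are used below only to place a peak within its own list, as the percentage of that list's peaks that score no higher. All results compare peak lists, of which there was 1 a side outside the H3K4me2 libraries of the progenitors.

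**Figure D1:**
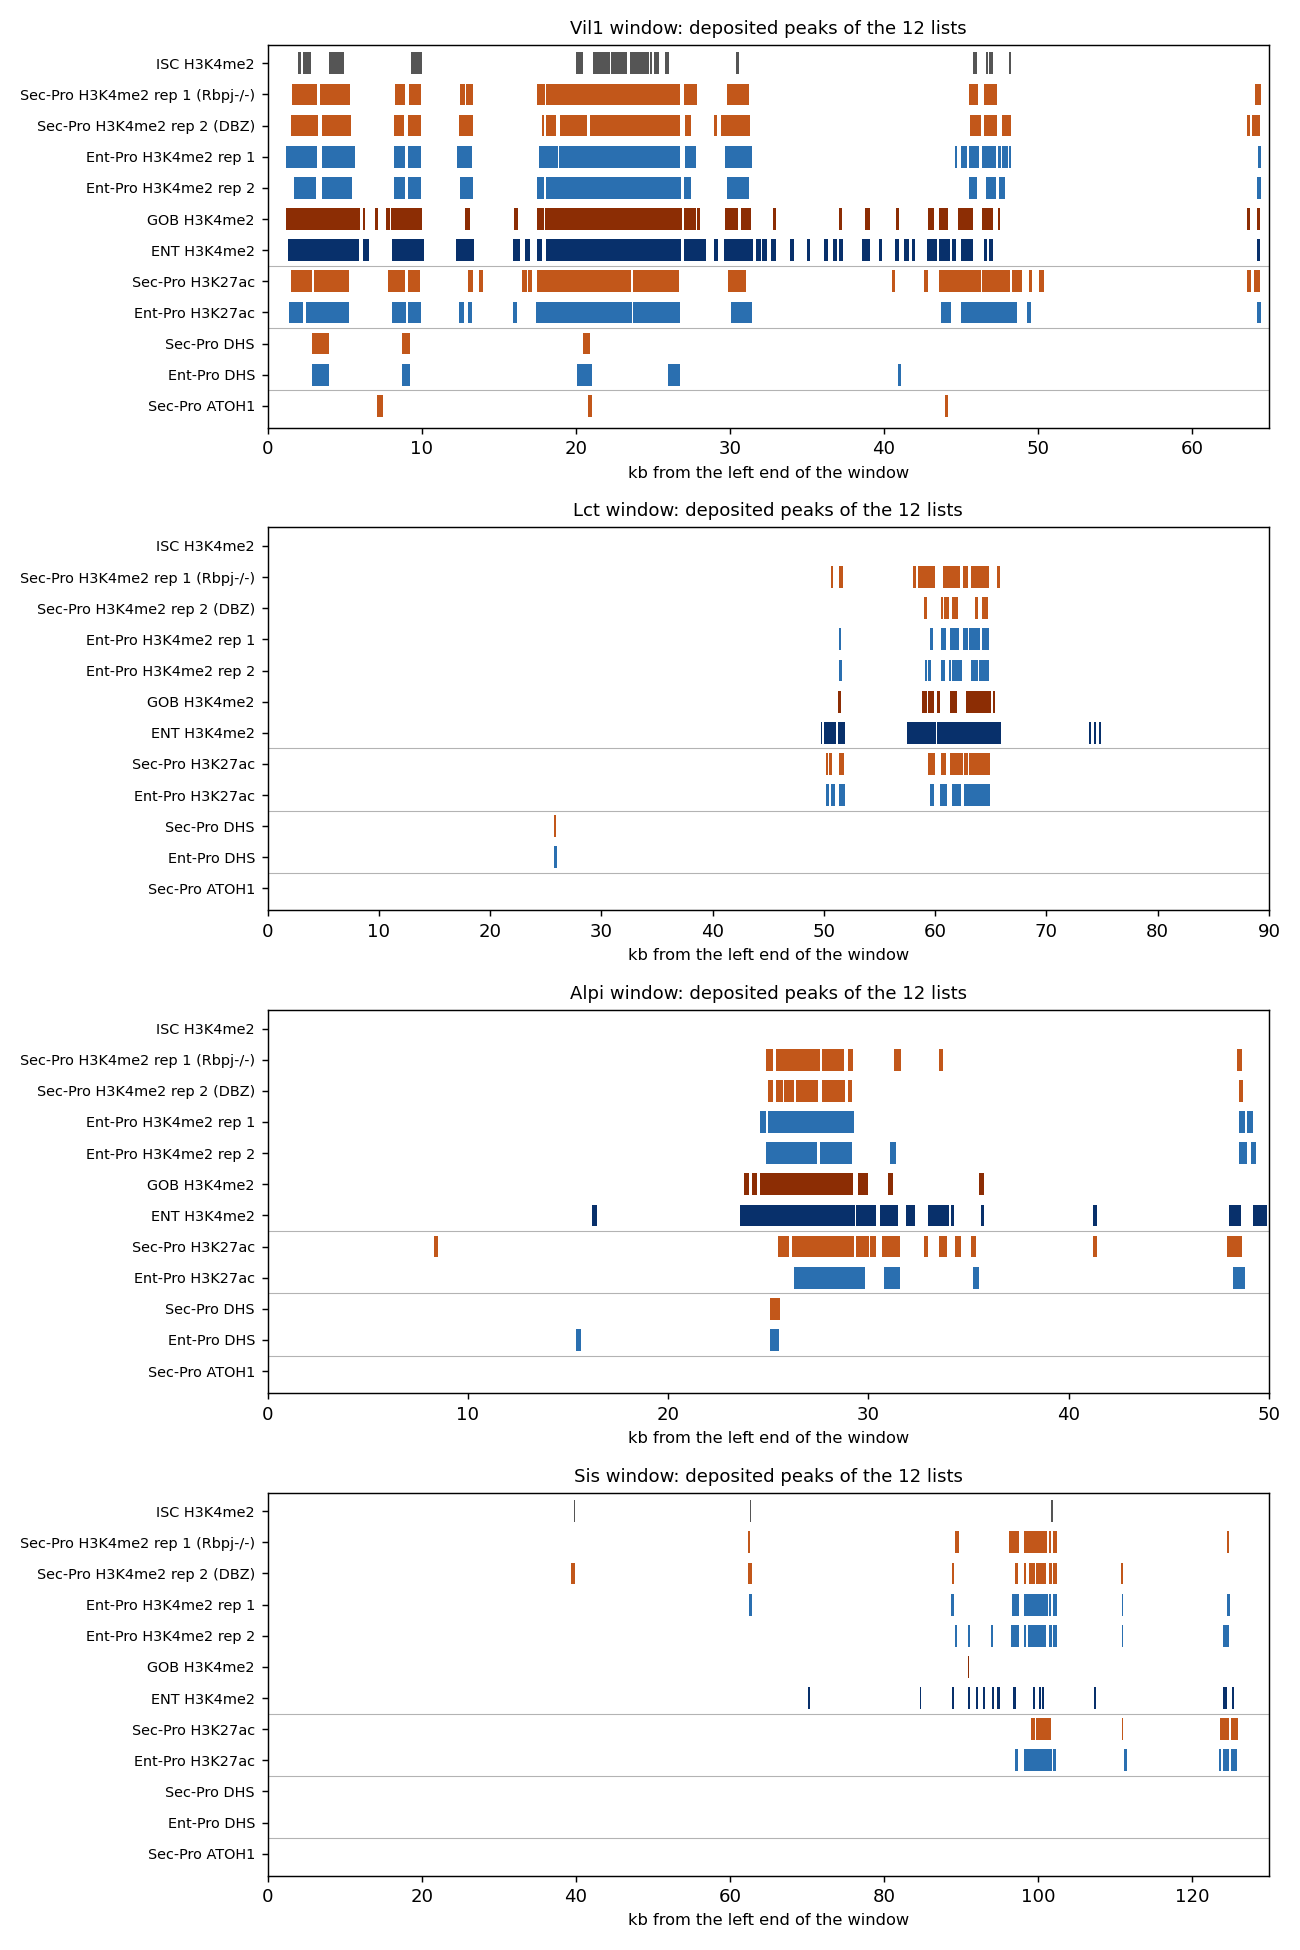
Peaks of the 12 lists in the Vil1, Lct, Alpi and Sis windows, drawn to scale by distance from the left end of the window in kb, with 1 row a list and 1 block a peak. The Vil1 window is marked in every list, Lct and Alpi have no ISC peak, and the only GOB peak at Sis is 146 bp long.

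Vil1 was densely marked in every cell type, stem cells included. H3K4me2 peaks covered 12.4% of its window in ISC, 29.3% in Rbpj-/- Sec-Pro, 30.4% in DBZ Sec-Pro, 32.8% in Ent-Pro replicate 1, 29.1% in Ent-Pro replicate 2, 36.6% in GOB and 43.8% in ENT. The order of these levels therefore ran from stem cells through progenitors to goblet cells and enterocytes, while the progenitor libraries overlapped each other. To place the window in the genome, each chromosome was cut into consecutive tiles of 65 kb, and 19873 tiles that held any H3K4me2 peak were kept. A tile need not hold a gene. Vil1 stood above 98.1% of them in ISC, 99.4% in GOB and 99.7% in ENT, against a median tile coverage of 1.47%, 2.52% and 2.78%.

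The main feature at Vil1 was a continuous block of H3K4me2. The ENT peak ran from 74453101 to 74461840 (8740 bp, score 156, percentile 98.8) and the GOB peak from 74453026 to 74461902 (8877 bp, score 272). Nearly the same block was the highest-scoring peak of Rbpj-/- Sec-Pro (74453143 to 74461788, score 252), Ent-Pro replicate 1 (74453875 to 74461774, score 273) and Ent-Pro replicate 2 (74453058 to 74461760, score 270). DBZ Sec-Pro had its longest peak there, from 74455920 to 74461777 (5858 bp), and its highest-scoring peak elsewhere, from 74438489 to 74440431 (score 152, percentile 99.2). In ISC the block was broken into shorter peaks, the highest-scoring of which spanned 74457317 to 74458350 (1034 bp, score 23.1, percentile 99.0). The top H3K27ac peaks overlapped the left part of this block, at 74453134 to 74458603 in Sec-Pro (score 434) and 74452387 to 74458613 in Ent-Pro (score 369). The highest-scoring H3K4me2 peak of the Vil1 window thus lay at 1 place in all lists but that of DBZ Sec-Pro.

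At the enzyme genes the stem cell list was empty or nearly so. At Lct, H3K4me2 covered 0% of the window in ISC, 6.72% in Rbpj-/- Sec-Pro, 2.57% in DBZ Sec-Pro, 4.40% in Ent-Pro replicate 1, 4.14% in Ent-Pro replicate 2, 5.00% in GOB and 11.6% in ENT. At Alpi the values were 0% in ISC, 9.29% and 7.42% in Rbpj-/- and DBZ Sec-Pro, 10.4% and 10.1% in Ent-Pro, 12.1% in GOB and 22.2% in ENT. ENT had the highest level at both genes and ISC no peak, with the progenitors and GOB between them. Sis followed another order, with 0.483% in ISC, 4.71% and 3.88% in Rbpj-/- and DBZ Sec-Pro, 4.84% and 4.85% in Ent-Pro, 0.112% in GOB and 3.25% in ENT. All 4 progenitor libraries lay above ENT at Sis, and GOB lay below ISC. Among tiles of the same length as each window, ENT coverage stood at percentile 87.6 for Lct, 95.0 for Alpi and 58.7 for Sis, and GOB coverage at 70.5, 86.9 and 13.7. ISC coverage stood at 20.5, 26.6 and 31.3, so 20.5% of tiles of the Lct length and 26.6% of the Alpi length also held no ISC peak. Sis was thus near the middle of the genome in ENT and near the low end in GOB.

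**Figure D2:**
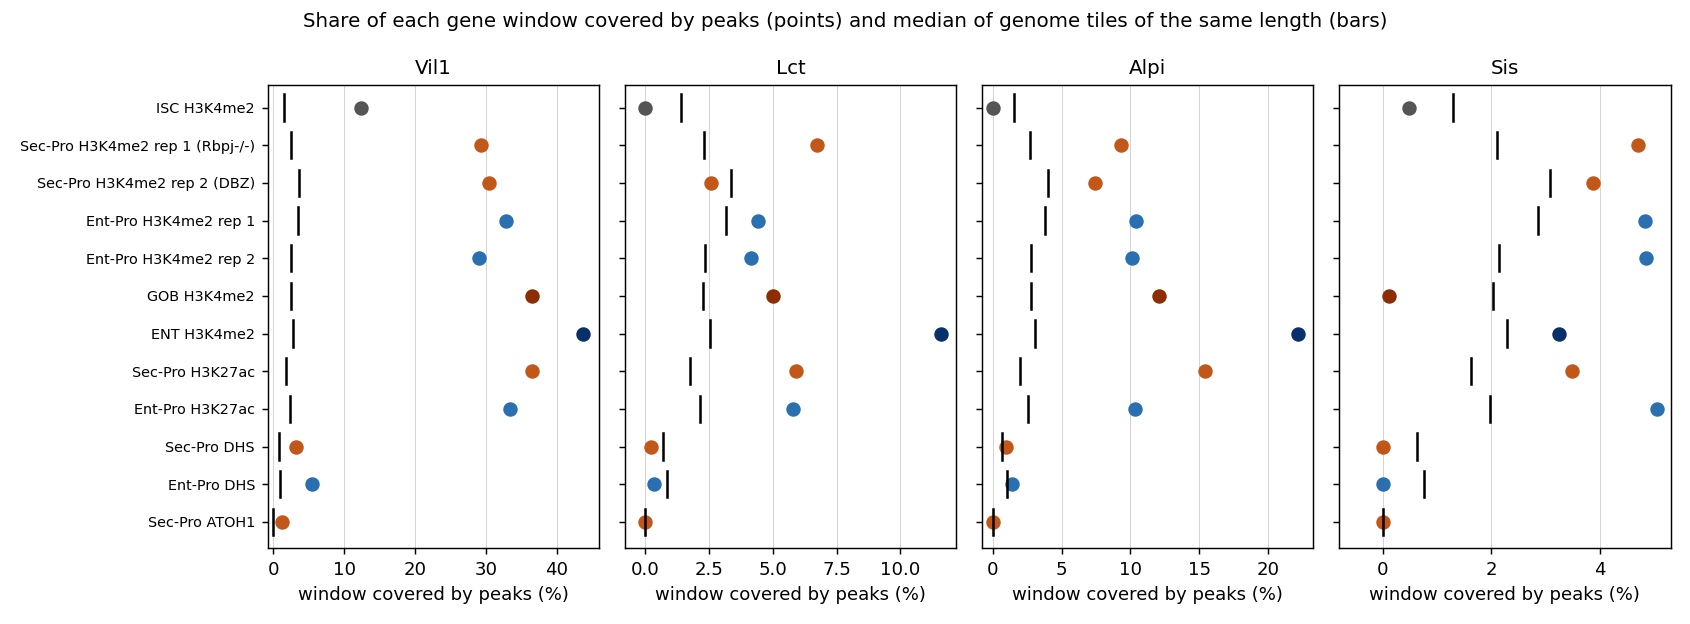
Percentage of the Vil1, Lct, Alpi and Sis windows covered by peaks in each of the 12 lists (points), with the median of genome tiles of the same length that hold an H3K4me2 peak (vertical bars); each gene has its own linear axis. ENT is the highest H3K4me2 point at Vil1, Lct and Alpi (43.8%, 11.6% and 22.2%), whereas at Sis the progenitors lie above ENT and GOB is at 0.112%.

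The peaks of the enzyme genes lay in a few places. At Lct the main H3K4me2 peak of ENT ran from 130220235 to 130225972 (5738 bp, score 90.0, percentile 87.0) and that of GOB from 130222752 to 130224954 (2203 bp, score 65.1, percentile 81.9). In the progenitors the same stretch held shorter separate peaks. The highest-scoring were at 130223160 to 130224784 in Rbpj-/- Sec-Pro (score 26.4), 130221541 to 130222081 in DBZ Sec-Pro (score 13.3), 130224202 to 130224848 in Ent-Pro replicate 1 (score 19.8) and 130221514 to 130222379 in Ent-Pro replicate 2 (score 18.8). The Lct window thus carried a peak 5738 bp long in enterocytes where the longest progenitor peak measured 1625 bp.

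At Alpi, the phosphatase gene, ENT had a peak from 88993572 to 88999306 (5735 bp, score 162, percentile 99.1) and GOB one from 88994603 to 88999247 (4645 bp, score 114, percentile 88.6). Ent-Pro replicate 1 spanned most of it with 1 peak, from 88994971 to 88999244 (4274 bp, score 40.3). The top peaks of the other progenitor libraries were shorter, at 88997599 to 88999172 in Ent-Pro replicate 2 (1574 bp, score 28.8), 88995354 to 88997512 in Rbpj-/- Sec-Pro (2159 bp, score 43.2) and 88997666 to 88998807 in DBZ Sec-Pro (1142 bp, score 23.5). At both Lct and Alpi the ENT peak reached past the GOB peak at either end.

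Sis had no long peak in mature cells. The highest-scoring ENT peak spanned 72793968 to 72794502 (535 bp, score 43.1, percentile 75.8) and was also the longest of the 15 there. GOB had 1 peak, from 72760933 to 72761078 (146 bp, score 6.09, percentile 22.3), which an ENT peak overlapped. The progenitors were marked most strongly elsewhere, from 72768179 to 72771273 in Ent-Pro replicate 1 (3095 bp, score 32.3), 72766490 to 72767531 in Ent-Pro replicate 2 (score 25.0), 72766211 to 72767519 in Rbpj-/- Sec-Pro (score 29.8) and 72769754 to 72771013 in DBZ Sec-Pro (score 26.8). ISC had 3 peaks at Sis, the highest-scoring from 72709766 to 72709923 (158 bp, score 6.04, percentile 43.1). The 2 regions marked in all 4 progenitors that ENT also marked were covered only in pieces by ENT peaks, each shorter than 535 bp.

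The comparison of the mature cells asked how enterocytes differ from goblet cells at genes whose products enterocytes carry. ENT coverage exceeded GOB coverage at all 4 genes, by 7.16 percentage points at Vil1, 6.57 at Lct, 10.1 at Alpi and 3.14 at Sis. As ratios these were 1.20, 2.31, 1.83 and 29.0. Each side had 1 library, so the differences have no replicate error and no test. A difference of at least 5 points was found in 3.35% of tiles of the Vil1 length, 2.51% of the Lct length, 4.26% of the Alpi length and 1.68% of the Sis length. Vil1, Lct and Alpi passed that mark. Sis could not reach it in these lists, because ENT peaks covered only 3.25% of its window. Among tiles of each window's length, the differences stood at percentiles 98.6 for Vil1, 98.7 for Lct, 99.1 for Alpi and 95.4 for Sis. The calls at Alpi and Sis turned with the processing, with Alpi below the mark at 4.48 points in the upper 50% of each list by score, and Sis above it at 6.31 points with peaks merged within 1 kb. The Sis ratio rests on 1 GOB peak, and GOB coverage as low as at Sis occurred in 3.24% of tiles of its length that were marked in all 4 progenitor libraries and in ENT.

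Counted by peaks, 41 of the 68 ENT peaks in the windows had no GOB peak over them, against 29.2% of all ENT peaks. The split was 14 of 15 at Sis, 7 of 10 at Lct, 8 of 12 at Alpi and 12 of 31 at Vil1, so Vil1 was nearest to the genome. The reverse was less frequent, with 4 of 38 GOB peaks lacking an ENT peak, against 24.8% of all GOB peaks. All 4 lay at Vil1, and the highest-scoring spanned 74498580 to 74498771 (192 bp). Leaving aside weak peaks, 11 of the 29 ENT peaks in the upper 50% by score had no GOB peak, against 7.55% in the genome, and 8 of these 11 lay at Sis. At Alpi it was 0 of 3, at Lct 1 of 4 and at Vil1 2 of 13. None of the 13 such GOB peaks lacked an ENT peak, against 5.61%. Outside Sis, the ENT peaks without a GOB counterpart were thus mostly of low score.

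The highest-scoring ENT peak that GOB lacked was at 74464038 to 74464247 in Vil1 (score 20.0, percentile 61.2), 130210521 to 130211097 in Lct (score 17.0, percentile 57.7) and 72793968 to 72794502 in Sis (given above). At Alpi 2 neighbouring peaks shared the highest value (score 11.2, percentile 46.0), starting at 89001882 and at 89002140. The Vil1 peak was overlapped in 1 progenitor library (DBZ Sec-Pro) and by no H3K27ac peak, whereas the Lct and Sis peaks lay over H3K27ac of both progenitors. The Alpi pair was found in no other list.

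**Figure D3:**
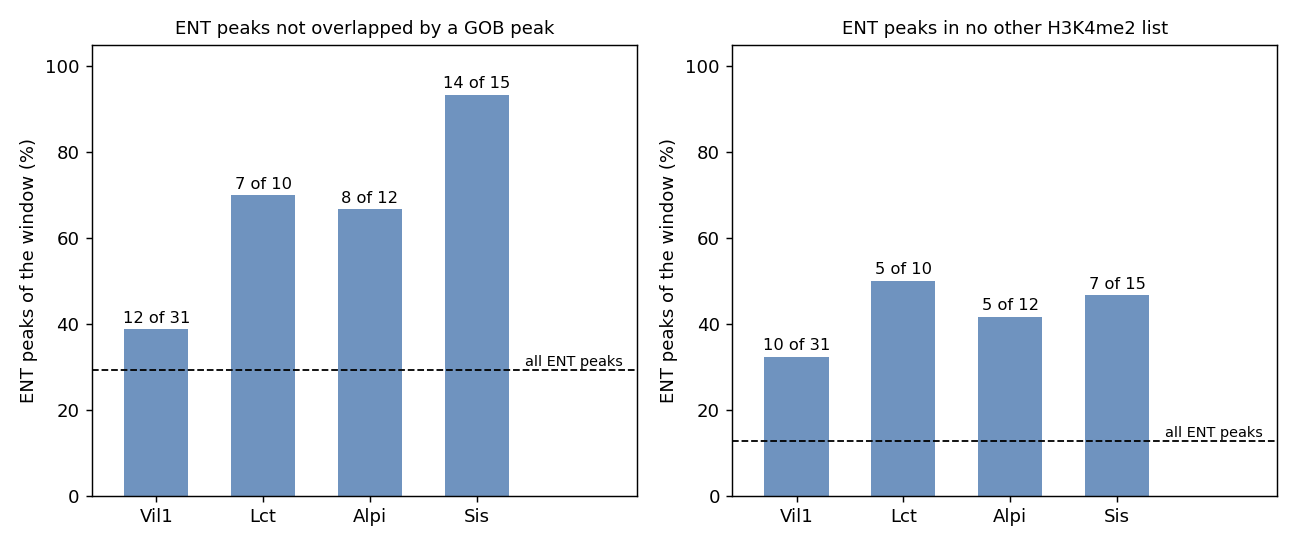
Percentage of ENT H3K4me2 peaks in the Vil1, Lct, Alpi and Sis windows that no GOB peak overlaps (left) and that no peak of the other 6 H3K4me2 lists overlaps (right), with the counts above the bars and the share of all ENT peaks as a dashed line, at 29.2% and 12.7%. Sis has the highest bar on the left (14 of 15), and on the right all 4 genes stand above the line, from 10 of 31 to 5 of 10.

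The next comparison asked which of the enterocyte peaks were already present at earlier stages. Of the 68 ENT peaks, 21 had a peak in both Ent-Pro libraries (59.8% of all ENT peaks did) and 19 in both Sec-Pro libraries (57.9%). The members' shares were thus below the genome's for either progenitor. By gene, 11 of 31 ENT peaks at Vil1, 3 of 10 at Lct, 3 of 12 at Alpi and 4 of 15 at Sis lay over both Ent-Pro libraries, and 11, 2, 2 and 4 over both Sec-Pro libraries. Another 27 ENT peaks had no peak in any of the other 6 H3K4me2 lists, against 12.7% of all ENT peaks. They numbered 10 at Vil1, 5 at Lct, 5 at Alpi and 7 at Sis. Their scores were low to middling, at percentiles 1.64 to 54.0 at Vil1, 4.10 to 46.0 at Lct, 7.21 to 46.0 at Alpi and 16.7 to 60.7 at Sis.

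Among the 41 ENT peaks that GOB lacked, 14 were marked in at least 1 progenitor H3K4me2 library, against 56.0% of all such peaks of the genome. Sis held 7 of these 14, from 14 such ENT peaks. Alpi had 3 of 8, Lct 2 of 7 and Vil1 2 of 12. H3K27ac of both progenitors lay over 8 of the 41, against 35.6%, namely 5 at Sis, 2 at Lct, 1 at Alpi and 0 at Vil1. Over the 4 windows together, the enterocyte peaks without a goblet counterpart were thus less often marked in progenitors than the genome's share. Sis had the most that were, and its shares of 50.0% for H3K4me2 and 35.7% for H3K27ac were near those of the genome.

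A run of small peaks made up much of the mature pattern at Vil1; it was singled out after the values had been seen. In the regions that start between 31.7 and 43.6 kb from the left end of the window, ENT had 15 peaks, none of which was overlapped in ISC or any progenitor H3K4me2 library. GOB marked 6 of them. The share of all ENT peaks that lack ISC and progenitor H3K4me2 was not counted. Other progenitor lists did mark part of the run. The ENT peaks starting at 74475718, 74477830 and 74478558 lay over Sec-Pro H3K27ac. That at 74478558 also lay over Ent-Pro H3K27ac and an ATOH1 peak, and that at 74475718 over an Ent-Pro DHS. The ENT scores were low, from 2.71 (percentile 1.64) to 15.6 (percentile 55.0).

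Adding all 7 H3K4me2 lists together gave 72 union regions in the windows, 32 at Vil1, 10 at Lct, 12 at Alpi and 18 at Sis. A peak in all 7 lists was found at 6 of them, all at Vil1, against 24.5% of union regions in the genome. ISC marked 10 regions, 7 at Vil1 and 3 at Sis, against 32.9%. Of the 68 ENT peaks, 7 had an ISC peak, again all at Vil1, against 44.9% of all ENT peaks. The Lct and Alpi windows thus had H3K4me2 in both progenitors and both mature cells but none in the stem cell list. Of tiles of the Lct length with peaks in all 4 progenitor libraries, 5.70% held no ISC peak, and of those of the Alpi length 7.61%. The ISC list covers less of the genome than the others, as given above, and the part of that in these counts was not tested.

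**Figure D4:**
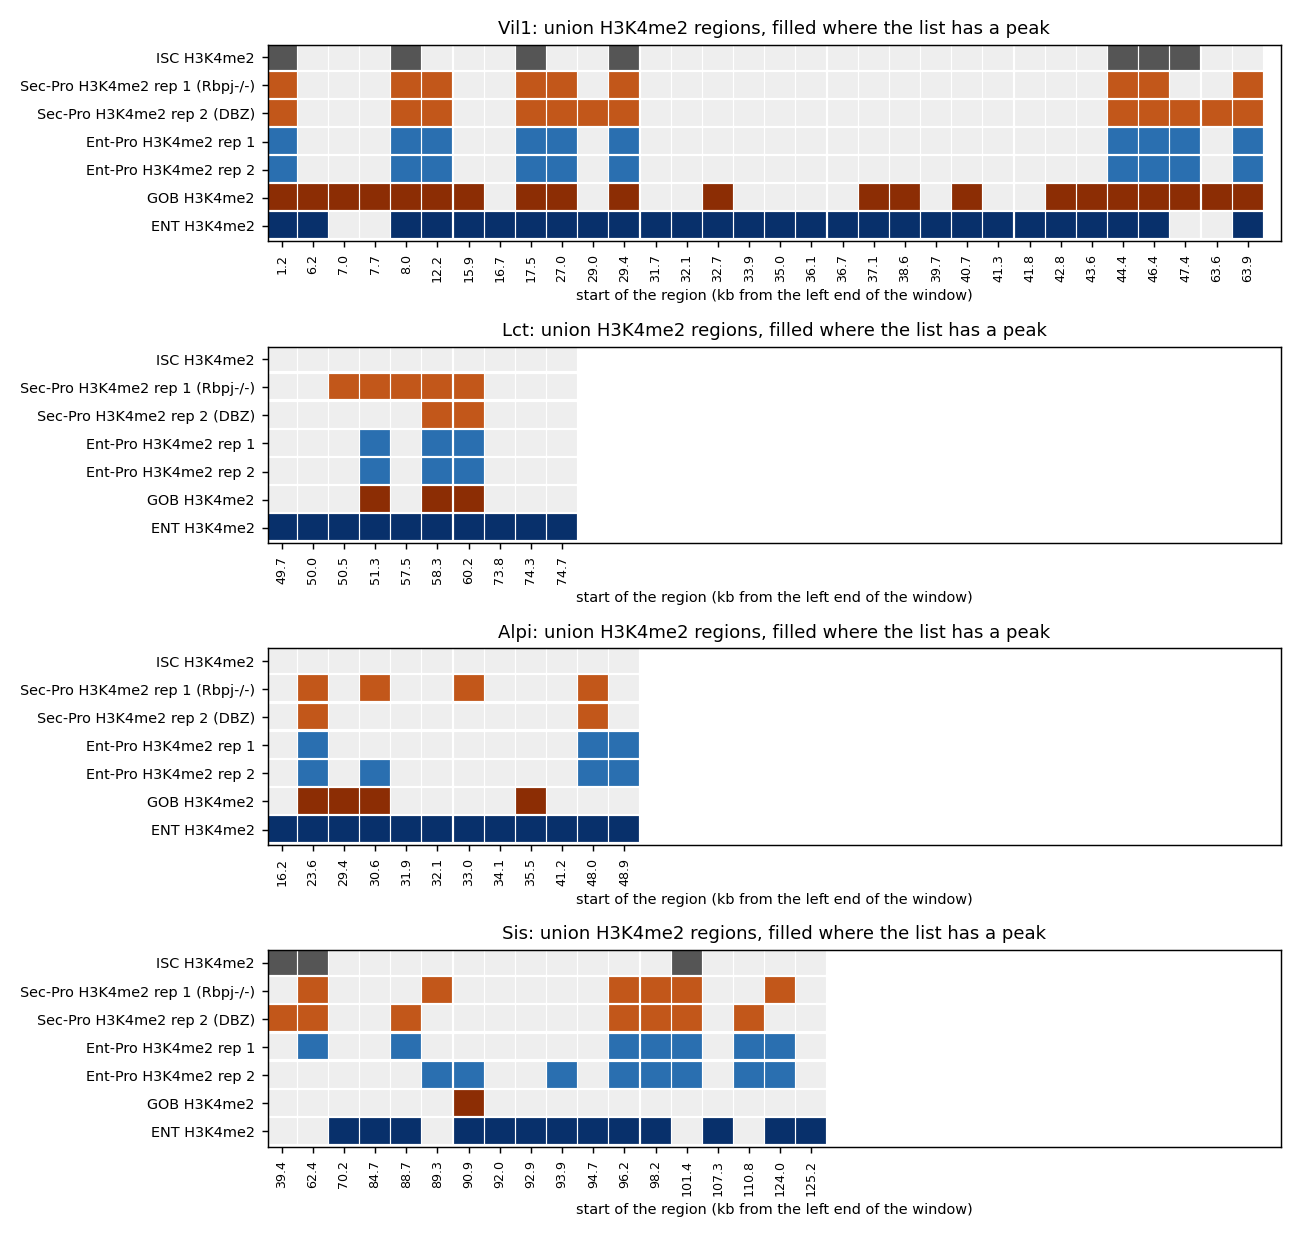
Union H3K4me2 regions of the Vil1, Lct, Alpi and Sis windows, in order along the chromosome and labelled by their start in kb from the left end of the window, filled where a list has a peak. The 6 regions filled in all 7 rows are at Vil1, the ISC row is empty at Lct and Alpi, and many columns are filled in ENT alone (27 peaks).

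Regions with a peak in all 4 progenitor libraries but none in ISC numbered 9, against 6.52% of union regions in the genome. They were 3 at Vil1, 2 at Lct, 2 at Alpi and 2 at Sis. Going from progenitors to mature cells, 5 of the 17 regions marked in both Sec-Pro libraries had no GOB peak, against 14.5%. They were all 4 such regions of Sis and 1 of 2 at Alpi, and none of 9 at Vil1 or of 2 at Lct. Of the 21 regions marked in both Ent-Pro libraries, 3 had no ENT peak, against 10.2%, with 2 of 5 at Sis and 1 of 10 at Vil1. Sis was thus the window where marks of the secretory progenitors had no counterpart in goblet cells at any region, in lists of 1 GOB and 2 Sec-Pro libraries.

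The comparison of the progenitors asked whether cells headed for the secretory or the absorptive fate differ at these genes. The mean coverage of Sec-Pro and Ent-Pro differed by less than 2 percentage points of the window at each gene. At Vil1 the mean was 29.9% ± 0.776 (SD, n = 2) in Sec-Pro and 30.9% ± 2.58 (SD, n = 2) in Ent-Pro, a difference of 1.07 points (two-sided exact permutation p = 1.00). At Lct it was 4.65% ± 2.93 against 4.27% ± 0.181 (SD, n = 2 each), a difference of -0.379 points (two-sided exact permutation p = 1.00). The Sec-Pro and Ent-Pro values overlapped at both genes. At Alpi the mean was 8.35% ± 1.32 in Sec-Pro and 10.2% ± 0.195 in Ent-Pro (SD, n = 2 each), a difference of 1.87 points (two-sided exact permutation p = 0.333). At Sis it was 4.30% ± 0.587 against 4.85% ± 0.00218 (SD, n = 2 each), a difference of 0.550 points (two-sided exact permutation p = 0.333). With 2 libraries a side the exact permutation test has 6 arrangements and cannot go below 0.333. The groups did not overlap at Alpi and Sis, but the size of the differences varied with the lists and libraries used. At Alpi the difference kept its sign under every alternative run, at 0.800 to 2.95 points. Without DBZ Sec-Pro the difference was 0.938 points at Alpi and 0.135 at Sis. At Sis it was 0.0296 points with lists of equal length and -0.0700 in the upper 50% of each list by score. In the same way both Ent-Pro values lay above both Sec-Pro values in 5.35% of tiles of the Alpi length and 3.75% of the Sis length.

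Part of these differences went with the kind of list. Between the lists with a shortest peak of 146 bp, Ent-Pro exceeded Sec-Pro by 2.35 points at Vil1, 1.82 at Lct, 2.95 at Alpi and 0.964 at Sis. Between those of 200 bp, the values were -0.206, -2.58, 0.800 and 0.136. The direction at Vil1 and Lct thus turned between the kinds, and the Sec-Pro library of the first kind was the DBZ one and of the second the Rbpj-/- one. Without Rbpj-/- Sec-Pro the Lct difference was 1.70 points, and without Ent-Pro replicate 1 the Vil1 difference was -0.755 points. Which preparation or list feature these go with cannot be told apart.

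The progenitors were also compared by which libraries marked each region. Merging the 4 progenitor lists gave 41 regions, 16 at Vil1, 8 at Lct, 5 at Alpi and 12 at Sis. All 4 libraries marked 20 of them (11, 3, 2 and 4), against 46.4% in the genome. Both Sec-Pro and neither Ent-Pro library marked 0, against 0.654%, and both Ent-Pro and neither Sec-Pro library marked 1, against 1.11%. That region lay at Alpi, from 89018943 to 89019332 (390 bp). The counts of 20 (48.8%), 0 and 1 among 41 are near these shares. With 1 library left out, the Ent-Pro regions numbered 3 to 5 and the Sec-Pro regions 0 to 4. They were 3 and 4 regions for Sec-Pro without its Rbpj-/- and DBZ library, and 1 and 0 without Ent-Pro replicate 1 and 2. For Ent-Pro they were 4 and 3 without the Sec-Pro libraries and 3 and 5 without its own.

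H3K27ac had peaks at all 4 genes in both progenitors. It covered 36.5% of the Vil1 window in Sec-Pro and 33.4% in Ent-Pro, 5.90% and 5.79% at Lct, 15.4% and 10.3% at Alpi, and 3.48% and 5.05% at Sis. Ent-Pro minus Sec-Pro was -5.13 points at Alpi, where Sec-Pro was higher, and 1.57 points at Sis, where Ent-Pro was higher, with 1 library a side and no test. Such peaks are common in long windows. Of 11964 tiles of the Sis length with an H3K4me2 peak, 8403 held H3K4me2 of all 4 progenitor libraries and H3K27ac of both. Among tiles, Sec-Pro and Ent-Pro coverage stood at percentiles 99.4 and 99.3 for Vil1, and 75.7 and 73.1 for Lct. They were 90.9 and 82.6 for Alpi, and 65.8 and 71.4 for Sis. Of the 47 Sec-Pro H3K27ac peaks, 16 had no Ent-Pro peak over them, against 20.2% of all Sec-Pro peaks. They were 8 of 22 at Vil1, 7 of 12 at Alpi, 1 of 5 at Sis and 0 of 8 at Lct. Their scores lay between percentiles 3.49 and 40.4 of the list. Of the 34 Ent-Pro peaks, 5 had no Sec-Pro peak, against 22.6%, namely 2 of 14 at Vil1 and 3 of 8 at Sis.

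The strongest acetylation at the enzyme genes fell in the same places in both progenitors. At Lct the top peak ran from 130222978 to 130224896 in Sec-Pro (score 34.6, percentile 79.4) and from 130222577 to 130224861 in Ent-Pro (score 25.4, percentile 65.2). At Alpi it ran from 88996211 to 88999271 in Sec-Pro (score 108, percentile 95.4) and from 88996294 to 88999565 in Ent-Pro (score 118, percentile 89.1). At both genes these lie within or across the long H3K4me2 peak of ENT. At Sis the top peaks were 72769828 to 72771713 in Sec-Pro (1886 bp, score 43.2, percentile 83.1) and 72768222 to 72771815 in Ent-Pro (3594 bp, score 99.0, percentile 86.6), so the Ent-Pro peak spanned the Sec-Pro one.

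Open chromatin, read by DNase I, gave few peaks outside Vil1. Among tiles, Sec-Pro and Ent-Pro DHS coverage stood at percentiles 92.0 and 97.9 for Vil1, and 54.8 and 59.0 for Alpi. They were 32.0 and 33.4 for Lct, and 25.0 and 20.4 for Sis. Alpi was thus near the middle of the genome, and Lct and Sis below it. The Sec-Pro list held 3 DHS at Vil1, 1 at Lct, 1 at Alpi and 0 at Sis, and the Ent-Pro list 5, 1, 2 and 0. None of the 5 Sec-Pro DHS lacked an Ent-Pro DHS, against 14.6% in the genome. Of the 8 Ent-Pro DHS, 3 lacked a Sec-Pro one, against 29.8%. These were 74460979 to 74461745 (score 15.8, percentile 49.5) and 74475889 to 74476108 (score 5.44, percentile 4.78) at Vil1 and 88985360 to 88985584 (score 5.06, percentile 4.18) at Alpi. With so few DHS, counts of 0 of 5 and 3 of 8 are near these shares. The 3 without a Sec-Pro DHS scored below the middle of the Ent-Pro list, 1 of them narrowly (percentile 49.5), with 1 library a side.

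The highest-scoring DHS at Vil1 was 74443739 to 74444264 in Sec-Pro (score 210, percentile 98.1) and 74443737 to 74444277 in Ent-Pro (score 222, percentile 98.2). It lay to the left of the long H3K4me2 block, in a region that all 7 H3K4me2 lists marked. At Alpi the top DHS was 88995123 to 88995614 in Sec-Pro (score 62.1, percentile 72.1) and 88995103 to 88995561 in Ent-Pro (score 82.1, percentile 78.7), inside the long H3K4me2 peaks of GOB and ENT. At Lct the only DHS was 130185739 to 130185938 in Sec-Pro (score 8.51, percentile 15.9) and 130185733 to 130186049 in Ent-Pro (score 21.0, percentile 56.5). No histone peak of the 9 lists lay over it, and the nearest H3K4me2 peak, in ENT, was 23784 bp from the Sec-Pro site and 23673 bp from the Ent-Pro site. Of the 8 Ent-Pro DHS, 2 had no histone peak over them (this one and the Alpi site at 88985360), against 35.6% in the genome. The marked stretch of the Lct window thus had no called DHS in either progenitor, nor did any of the Sis window. Of tiles of the Sis length with H3K4me2 in all 4 progenitor libraries and H3K27ac in both, 9.40% held no DHS.

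ATOH1 had 3 peaks in the Vil1 window and none at Lct, Alpi or Sis. They spanned 74442096 to 74442500 (score 4.93, percentile 33.6), 74455796 to 74456067 (score 4.38, percentile 23.9) and 74479023 to 74479168 (score 5.28, percentile 35.5). All 3 were in the lower part of the list's scores. The peak at 74455796 lay over a DHS of both progenitors and inside the long H3K4me2 block, so 1 of 3 ATOH1 peaks had a DHS, against 39.2% of all ATOH1 peaks. The ATOH1 list covers 3.41 Mb of the genome, the least of the 12, and the median tile of each window's length held none of it. No ATOH1 peak lay in 57.2% of tiles of the Lct length, 66.1% of the Alpi length and 51.5% of the Sis length. At Vil1, ATOH1 peaks covered 1.27% of the window, at percentile 95.3 of its tiles.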

How the data were processed

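Peak lists of 12 libraries were analysed. The 3 input DNA samples were not used here. The submitters' processing notes name the build mm9 and the tools CASAVA 1.7, Bowtie 0.12.7 and MACS2, with no settings. The sources used here give neither read depth nor whether input DNA entered the peak calling. The authors deposited 1 list per library, with each peak's position and a score, a quantity the files do not name. Nothing in the labels says that replicates came from separate animals, so p-values measure only the spread between these libraries, which may be technical.

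Positions are 1-based. Peaks counted as shared from 1 bp of overlap, union regions are merged overlapping peaks, and coverage is the percentage of a window under peaks. Background shares were computed the same way over whole lists or over consecutive tiles of the window's length on the assembled mm9 chromosomes (lengths from GenomeInfoDb 1.38.1). Tests were exact permutation tests. Counting was tested on simulated data. Positions are named for the highest-scoring peak of each list in each window, the highest-scoring ENT peak without a GOB peak and the reverse, and DHS and ATOH1 peaks found in 1 list. Other peaks whose position is given were chosen after their values were seen. The members, lists and motifs were chosen with earlier results of these data known.

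Motifs were searched on both strands of RefSeq promoters (GRCm38.p6). That table's build differs from the peaks' build and no coordinates were converted, so whether a peak lies on a start site, exon or intron was not analysed here, and neither were peaks of the 24 other absorptive genes. In RefSeq's gene order Vil1 lies between Ctdsp1 and Usp37, Lct between Ubxn4 and Mcm6, Alpi between Alppl2 and Akp3, and Sis between Otol1 and Slitrk3. Alternatives were lists cut to their upper 50% by score or to equal length, an overlap of 50% of the peak, peaks wholly inside the window, merging within 1 kb, leaving out libraries, lists of 1 shortest peak, all tiles and a longer promoter. Python 3.11.15, NumPy 2.4.6 and matplotlib 3.10.9 were used.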

Additional observations from a re-analysis of the deposited data

How the results depend on the processing

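Of 145 values recomputed for 29 results, 98 stayed within the margin set for them, 42 moved and 5 changed sign. The upper 50% of each list gave 17 ENT peaks without GOB and 0 GOB peaks without ENT, ENT minus GOB coverage of 4.48 points at Alpi and 2.17 at Sis, and an Ent-Pro minus Sec-Pro difference of -0.0700 points at Sis. It also gave 7 regions in every progenitor library, 0 regions of Ent-Pro alone, 4 regions with ISC, 3 in all 7 lists, 13 in ENT alone, 0 and 2 H3K27ac peaks in Ent-Pro or Sec-Pro alone, 1 DHS in Ent-Pro alone and 0 ATOH1 peaks. Merging within 1 kb gave 10 ENT peaks without GOB and 0 the reverse, ENT minus GOB coverage of 16.3 points at Vil1, 13.3 at Alpi and 6.31 at Sis, 11 regions in every progenitor library, 0 of Ent-Pro alone, 6 with ISC, 3 in all 7 lists and 6 in ENT alone. An overlap of 50% left 0 regions with ISC and 0 in all 7 lists, as ISC peaks covered less than 50% of each merged region. Lists of equal length gave 1 region of Sec-Pro alone, 16 of ENT alone, 1 DHS of Ent-Pro alone and a Sis difference between the progenitors of 0.0296 points. The lists of 146 bp gave 4 and 9 regions of Sec-Pro and Ent-Pro alone and a Lct difference of 1.82 points. Those of 200 bp gave 6 and 5 regions and a Vil1 difference of -0.206 points. Leaving out a progenitor library gave 0 to 4 regions of Sec-Pro alone, 3 to 5 of Ent-Pro alone, and Ent-Pro minus Sec-Pro differences of -0.755 to 2.90 points at Vil1 (negative without Ent-Pro replicate 1), -2.45 to 1.70 at Lct (positive without Rbpj-/- Sec-Pro), 0.938 to 2.81 at Alpi and 0.135 to 0.965 at Sis (both lowest without DBZ Sec-Pro). Over all tiles ENT coverage stood at percentile 99.9 for Vil1 and 75.8 for Sis. The added TTTATNA letters raised the motif kinds at Lct to 2. The cause of these shifts was not tested. ENT coverage exceeded GOB coverage at all 4 genes under every alternative run. Read depth is unknown, so small peaks may be missing from any list.

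No paired analysis was possible because the Sec-Pro labels carry no replicate numbers that Ent-Pro shares, and the other groups have 1 library each.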

Other observations

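At Sis, 1 region had H3K4me2 in ISC and all 4 progenitor libraries and in neither GOB nor ENT. It spanned 1105 bp, from 72771411 to 72772515 on chromosome 3 in mm9. Its left end was overlapped by the top H3K27ac peaks of both progenitors in that window, and its ISC peak measured 293 bp. Farther right, from 72772026 to 72772395, it held an Ent-Pro H3K27ac peak that no Sec-Pro H3K27ac peak overlapped. The region was singled out after the values were seen, and how many union regions of the genome share its pattern was not counted.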
